A study of Mus musculus with 20 samples.

Results

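The step between 36 and 24 h after estradiol (E2) withdrawal was examined in mouse ER-Hoxa9-Lys-GFP cells profiled by ATAC-seq, an assay in which Tn5 transposase inserts adapters into accessible DNA. Peaks of the 36 h list were sorted by whether any peak of the 24 h list overlapped them by at least 1 bp, and peaks of the 24 h list were sorted in the same way against the 36 h list. Of 59683 peaks listed at 36 h, 8614 had no 24 h peak and are called new. Of 62559 peaks listed at 24 h, 11724 had no 36 h peak and are called dropped. The 20338 differing peaks are part of 504887 peaks in the 10 lists of the time course. The 48 h list was then used to separate differences that were held. A new peak was held if the 48 h list contained it, and a dropped peak was held if the 48 h list lacked it too. This gave 4957 held new and 7167 held dropped peaks.

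The cells derive from C57BL/6 and carry the homeobox factor Hoxa9 fused to the estrogen receptor (ER), and a GFP reporter of the lysozyme gene (Lys-GFP). They were grown in RPMI with serum and SCF-conditioned medium. The 36 h cells and the 24 h cells had been washed with PBS and returned to medium without E2, whereas the 0 h cells were grown with E2. All groups share the fusion gene and the reporter. The labels name 1 cell line and 2 samples per time, but nuclei of a preparation were split into 2 transposition reactions, so these may be technical repeats. Each time point has 1 deposited list for both samples. No spread between replicates can therefore be computed, no test across samples is possible and no p-value is given. Intervals below are 95% Wilson intervals on peak counts. They cover counting error only, and peaks of 1 list are not replicates of a condition.

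As background, Hoxa9 holds myeloid progenitors in an immature, self-renewing state, and an ER fusion of it depends on its ligand. When E2 is removed, such cells leave that state and mature toward neutrophils. Accessible DNA lies mainly at promoters, many of which are open in most cell types, and at distal regulatory elements, which differ more between cell types. In bulk cells, a site open in fewer cells and a site less open in every cell cannot be told apart. At the reporter locus Lyz2, which encodes lysozyme M, 3 peaks were listed at 36 h and 3 at 24 h, of which 1 was held new and 1 held dropped. No peak of any list was assigned to Hoxa9.

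The promoters below are examples of both directions of the step. All but that of Pilra, which had also been listed at 8 h, were listed either in every list from 36 h and none before, or in every list to 24 h and none after. They are shown as RefSeq promoter windows of 300 bases on GRCm38.p6, 5′ to 3′ on the gene's strand, from 250 bases before the gene's start to 50 after it. Capitals mark matches to the motifs named with the motif counts further on. The windows of S100a8, which encodes a calcium-binding protein abundant in neutrophils, of Mgst1, a glutathione transferase gene, and of Pilra, an inhibitory receptor gene of myeloid cells, overlap a held new peak. They lie at chr3:90668821-90669120 (plus strand), chr6:138140277-138140576 (plus strand) and chr5:137836229-137836528 (minus strand).
S100a8: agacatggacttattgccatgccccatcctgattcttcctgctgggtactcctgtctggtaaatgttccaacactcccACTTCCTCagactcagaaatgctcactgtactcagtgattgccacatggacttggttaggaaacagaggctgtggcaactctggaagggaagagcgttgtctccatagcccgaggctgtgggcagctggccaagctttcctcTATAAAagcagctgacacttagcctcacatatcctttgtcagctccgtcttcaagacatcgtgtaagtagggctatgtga
Mgst1: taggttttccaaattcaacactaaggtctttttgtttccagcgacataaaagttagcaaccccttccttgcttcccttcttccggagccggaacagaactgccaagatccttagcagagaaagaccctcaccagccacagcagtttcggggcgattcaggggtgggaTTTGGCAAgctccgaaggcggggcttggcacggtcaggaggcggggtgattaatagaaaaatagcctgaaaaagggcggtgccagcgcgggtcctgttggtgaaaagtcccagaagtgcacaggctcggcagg
Pilra: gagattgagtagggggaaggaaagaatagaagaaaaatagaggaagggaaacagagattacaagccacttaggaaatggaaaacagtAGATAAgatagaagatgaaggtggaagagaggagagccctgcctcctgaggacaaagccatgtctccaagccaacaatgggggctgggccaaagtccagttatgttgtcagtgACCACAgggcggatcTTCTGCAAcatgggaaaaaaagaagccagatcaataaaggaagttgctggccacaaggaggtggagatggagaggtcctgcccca
The windows of Cpa3, which encodes a mast cell carboxypeptidase, of Itga2b, the integrin subunit of the megakaryocyte lineage, and of Tlr3, the receptor for double-stranded RNA, overlap a held dropped peak. They lie at chr3:20242132-20242431, chr11:102469834-102470133 and chr8:45410331-45410630, all on the minus strand.
Cpa3: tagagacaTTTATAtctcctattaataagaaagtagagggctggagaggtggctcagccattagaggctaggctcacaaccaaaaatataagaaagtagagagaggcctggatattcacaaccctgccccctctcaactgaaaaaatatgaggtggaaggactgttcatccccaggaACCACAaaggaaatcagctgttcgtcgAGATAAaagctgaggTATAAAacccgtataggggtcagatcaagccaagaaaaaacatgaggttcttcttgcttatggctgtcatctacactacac
Itga2b: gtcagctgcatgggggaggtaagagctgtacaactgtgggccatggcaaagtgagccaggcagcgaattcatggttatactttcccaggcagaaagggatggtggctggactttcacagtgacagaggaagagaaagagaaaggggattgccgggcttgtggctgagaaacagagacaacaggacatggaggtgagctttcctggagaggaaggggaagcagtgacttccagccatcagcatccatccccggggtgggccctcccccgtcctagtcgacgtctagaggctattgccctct
Tlr3: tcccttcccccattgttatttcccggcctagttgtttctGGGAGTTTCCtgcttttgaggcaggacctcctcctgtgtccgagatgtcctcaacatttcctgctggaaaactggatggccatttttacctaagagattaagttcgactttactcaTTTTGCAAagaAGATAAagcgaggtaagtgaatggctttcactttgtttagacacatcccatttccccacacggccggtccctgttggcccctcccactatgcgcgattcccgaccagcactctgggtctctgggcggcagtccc

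New peaks made up 14.4% (14.2 to 14.7%) of the 36 h list, and dropped peaks 18.7% (18.4 to 19.05%) of the 24 h list. Held new peaks were 8.31% of the 36 h list and held dropped peaks 11.5% of the 24 h list. The 48 h list contained 57.5% (56.5 to 58.6%) of the new peaks and lacked 61.1% (60.2 to 62.01%) of the dropped ones. The remaining 3657 new peaks were absent again at 48 h, and 4557 dropped peaks were listed again at 48 h. The lists also differed in length, covering 28.66 Mb at 36 h and 31.52 Mb at 24 h. When the lists were reduced to the same number of widest peaks, 59562 each, 10017 peaks were new and 10265 dropped, so the surplus of dropped over new peaks was then small. Read depth is unknown because the lists hold no read counts, and its part in the difference was not tested.

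The share of new and dropped peaks can be set beside the neighbouring steps. Of the 24 h peaks, 21.8% had no 12 h peak, and 15.6% of the 12 h peaks had no 24 h peak. For 36 h against 24 h the values were 14.4% new and 18.7% dropped. For 48 h against 36 h they were 15.6% new and 15.7% dropped. The list that follows contained 60.5% of the peaks new at 24 h, 57.5% of those new at 36 h and 37.2% of those new at 48 h. The 72 h list, which follows the last of these, is shorter, with 46837 peaks. Dropped peaks were still absent in the list that follows in 64.7%, 61.1% and 72.1% of cases over the 3 steps in order of time.

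Most held new peaks were not sites seen for the first time. Of the 4957, 3004 (60.6%, 59.2 to 61.95%) had already been listed at 0, 4, 8 or 12 h, and 1953 (39.4%) were first listed at 36 h. Of the held dropped peaks, 6016 of 7167 (83.9%, 83.1 to 84.8%) were in none of the lists of 72, 96 and 120 h, and 1151 (16.1%) came back in at least 1 of them. These late lists are shorter, with 46837, 29806 and 23620 peaks, whereas those of 0 to 12 h hold 54717 to 57666. Absence before and absence after the step are therefore not on a like footing. The lists of 0, 12, 72, 96 and 120 h contained 37.4%, 41.6%, 53.4%, 30.99% and 24.6% of the held new peaks. Of the 51069 peaks at 36 h with a 24 h peak, called kept, the same lists contained 77.2%, 83.7%, 73.4%, 47.6% and 38.3%. Of the held dropped peaks they contained 45.9%, 50.3%, 12.6%, 8.05% and 6.56%. Kept peaks of the 24 h list stood at 73.5%, 47.6% and 38.3% at 72, 96 and 120 h. Held new peaks were thus listed less often than kept peaks at each of these times, and held dropped peaks were rarely listed from 72 h on. The held classes were chosen by the 48 h list too, whereas kept peaks were not. The 72 h list contained 24.2% of all dropped peaks and 42.4% of those listed again at 48 h.

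**Figure D1:**
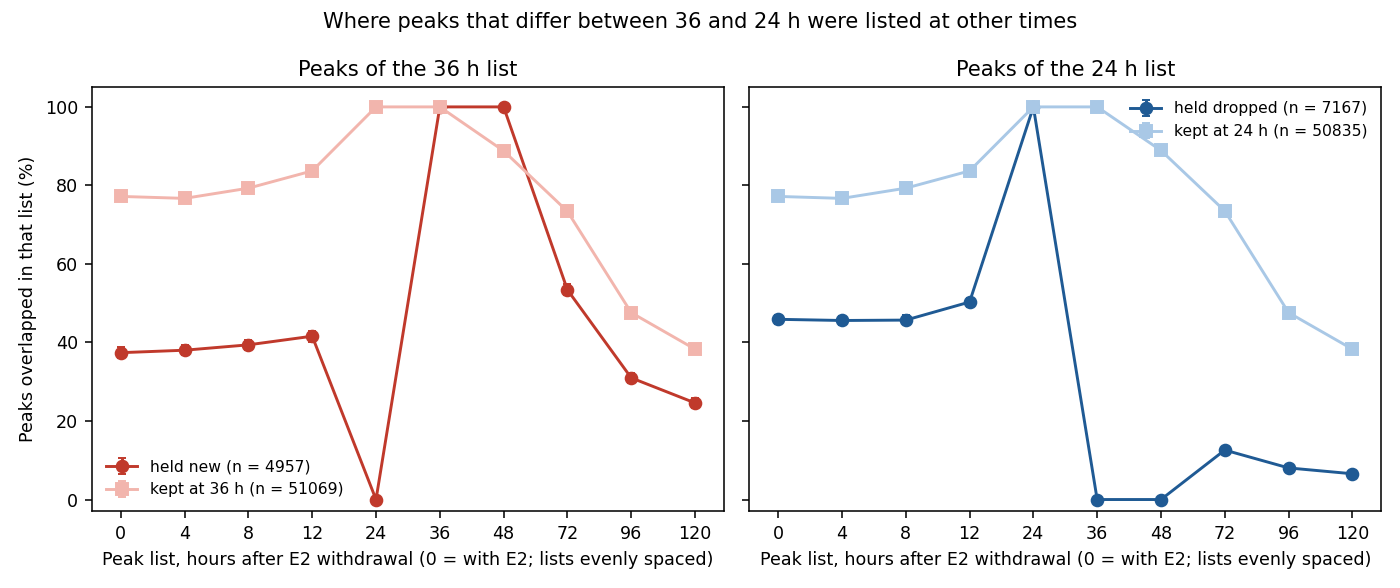
Share of peaks (%, y axis) overlapped in each of the 10 lists (x axis, hours after E2 withdrawal, evenly spaced), for held new and kept peaks of the 36 h list (left) and held dropped and kept peaks of the 24 h list (right), with 95% Wilson intervals that are often smaller than the points. Held new peaks stand at 41.6% at 12 h and 53.4% at 72 h, below the kept peaks at both times, and held dropped peaks at 50.3% at 12 h and 12.6% at 72 h. The values at 24, 36 and 48 h of the held classes are set by their definition.

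The patterns over all 10 lists show what these shares are made of. The most frequent pattern of held new peaks was presence at 36 and 48 h alone, in 870 peaks (17.6%), followed by 36, 48 and 72 h in 571 (11.5%). A total of 260 (5.25%) were first listed at 36 h and present in every list to 120 h. A further 212 were in every list except that of 24 h. These last were wide, with a median of 670 bp, and 53.8% (47.1 to 60.4%) were promoters, here peaks within 1000 bp of a transcription start site (TSS). Each of the 10 lists lacks such a set of sites that all others hold: 219 sites were missing from the 36 h list alone and 215 from the 48 h list alone. The most frequent pattern of held dropped peaks was presence at 24 h alone, in 1736 (24.2%), followed by every list to 24 h and none after it in 1326 (18.5%).

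Held new and held dropped peaks differed in where they lay. Promoters made up 15.4% (14.4 to 16.4%) of held new peaks and 7.77% (7.17 to 8.41%) of held dropped peaks, against 19.7% and 19.6% of the kept peaks of the same lists. The median distance to the nearest TSS was 15536 bp for held new peaks and 23194 bp for held dropped peaks. For kept peaks it was 14356 bp at 36 h and 14422 bp at 24 h. Sites over 200 kb from a TSS were 3.23% of held new and 5.72% of held dropped peaks. The promoter share of held new peaks came mainly from sites that had been listed before. Of the 762 promoter peaks, 683 had been listed at 0 to 12 h, where the share was 22.7% (21.3 to 24.3%), and the share was 4.05% (3.26 to 5.01%) in those first listed at 36 h. Likewise, it was 25.1% (22.7 to 27.7%) in held dropped peaks that came back at 72 to 120 h and 4.45% (3.96 to 5.01%) in those that did not. Peaks first listed at 36 h and peaks not listed again were thus nearly all distal. The kept peaks set beside them were not split by listing at other times. Among kept peaks, too, distal sites were listed elsewhere less often than promoters. The 12 h list contained 82.5% of distal and 88.8% of promoter peaks kept at 36 h. The 72 h list contained 69.95% of distal and 87.9% of promoter peaks kept at 24 h.

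**Figure D2:**
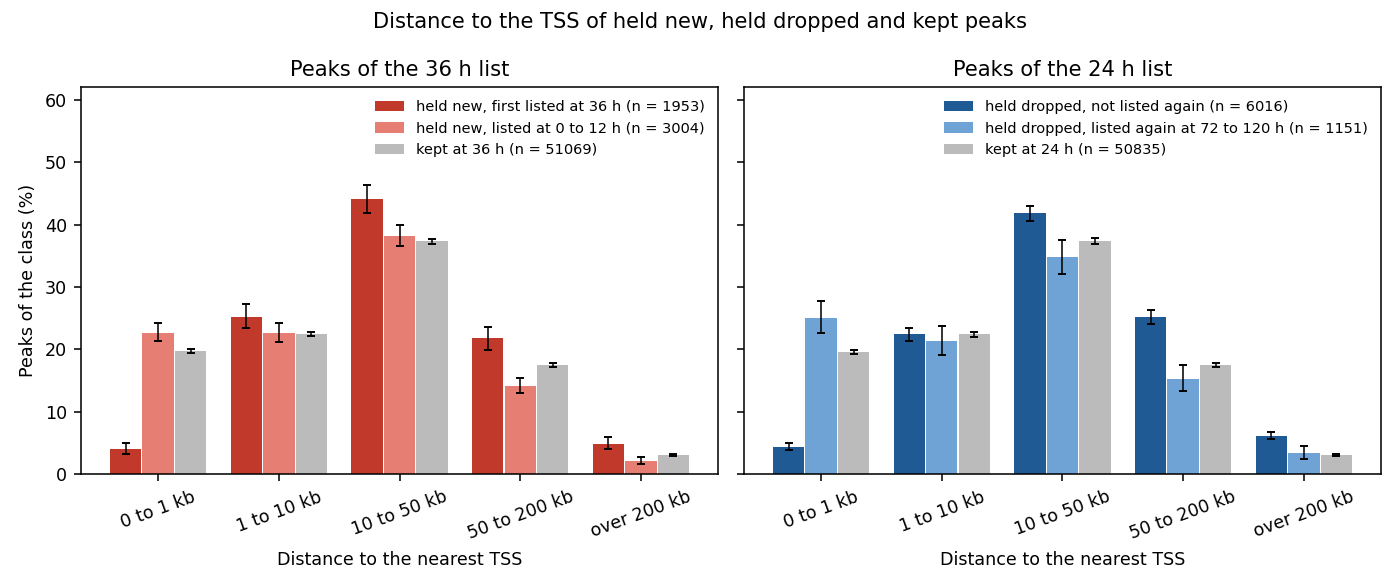
Share of peaks (%, y axis) by distance to the nearest TSS (x axis), for held new peaks split by earlier listing beside kept peaks of the 36 h list (left) and held dropped peaks split by later listing beside kept peaks of the 24 h list (right); bars carry 95% Wilson intervals. Within 1 kb of a TSS lie 4.05% of the peaks first listed at 36 h and 4.45% of the peaks not listed again, below the kept peaks at 19.7% and 19.6%. Kept peaks were not split by listing at other times.

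In the annotation deposited with the peaks, the directions differed in the intergenic share but little in the intronic share. Introns held 43.03% of held new and 42.5% of held dropped peaks, and intergenic DNA held 38.96% (37.6 to 40.3%) of held new and 46.99% (45.8 to 48.1%) of held dropped peaks. Kept peaks were intronic in 38.9% and intergenic in 39.3% of cases at 36 h. The peaks first listed at 36 h were intronic in 50.8% (48.6 to 53.01%). CpG islands were the annotation of 1.71% of held new and 0.949% of held dropped peaks, and of 2.39% and 2.43% of kept peaks at 36 and 24 h. Each peak carries 1 such label, so an island that carries another label is not counted.

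Repeats were annotated more often at differing than at kept sites. A repeat was named for 23.99% (22.8 to 25.2%) of held new and 26.5% (25.4 to 27.5%) of held dropped peaks, and for 18.8% and 18.9% of kept peaks at 36 and 24 h. Kept peaks also held more promoters, as given above. Repeat shares, here and below, were not compared within distal peaks alone. The shares of some families differed between the directions, most of them given here for peaks absent from all earlier or all later lists. ERVL-MaLR elements, an old family of long terminal repeats that includes the MT and ORR1 groups, were named for 9.27% (8.06 to 10.6%) of the peaks first listed at 36 h and 5.55% (5.001 to 6.16%) of the peaks not listed again, against 4.28% of kept peaks at 36 h. B2 elements, short repeats that derive from a transfer RNA gene, were named for 4.4% (3.58 to 5.41%) of the peaks first listed at 36 h and 7.98% (7.32 to 8.69%) of the peaks not listed again, against 3.73% of kept peaks at 24 h. Over the whole classes, B2 subfamilies exceeded kept peaks in both directions. B3, B3A and B2_Mm2 were 2.64%, 1.41% and 1.37% of held new peaks, against 1.97%, 0.889% and 0.813% of kept peaks. In held dropped peaks they were 3.03%, 1.66% and 1.94%, against 1.92%, 0.869% and 0.818%. ERVK elements were named for 2.08% of held new and 3.6% (3.19 to 4.06%) of held dropped peaks. The subfamily RLTR45 supplied 78 of the held dropped ERVK peaks, 1.09% of the class, against 0.561% of kept peaks. The MTC subfamily supplied 30 held new peaks, 0.605% of the class, against 0.204% of kept peaks.

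Differing peaks were narrow. The median width was 338 bp for held new and 315 bp for held dropped peaks, whereas kept peaks had medians of 430 bp at 36 h and 460 bp at 24 h. Peaks of 151 to 300 bp in the 36 h list were new in 26.2% (25.5 to 26.9%) of cases, those of 586 to 968 bp in 7.996% (7.52 to 8.5%), and those of 969 to 2357 bp in 10.6% (9.56 to 11.8%). Peaks of 152 to 309 bp in the 24 h list were dropped in 33.4% (32.6 to 34.1%) of cases, those of 621 to 1025 bp in 9.62% (9.12 to 10.2%), and those of 1026 to 2627 bp in 14.3% (13.1 to 15.5%). The share was thus lowest in the second widest range in both lists. The 50230 kept sites that paired 1 to 1 were themselves narrower at 36 h, with a median of 429 bp at 36 h and 458 bp at 24 h, and 62.4% (61.9 to 62.8%) were narrower at 36 h.

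**Figure D3:**
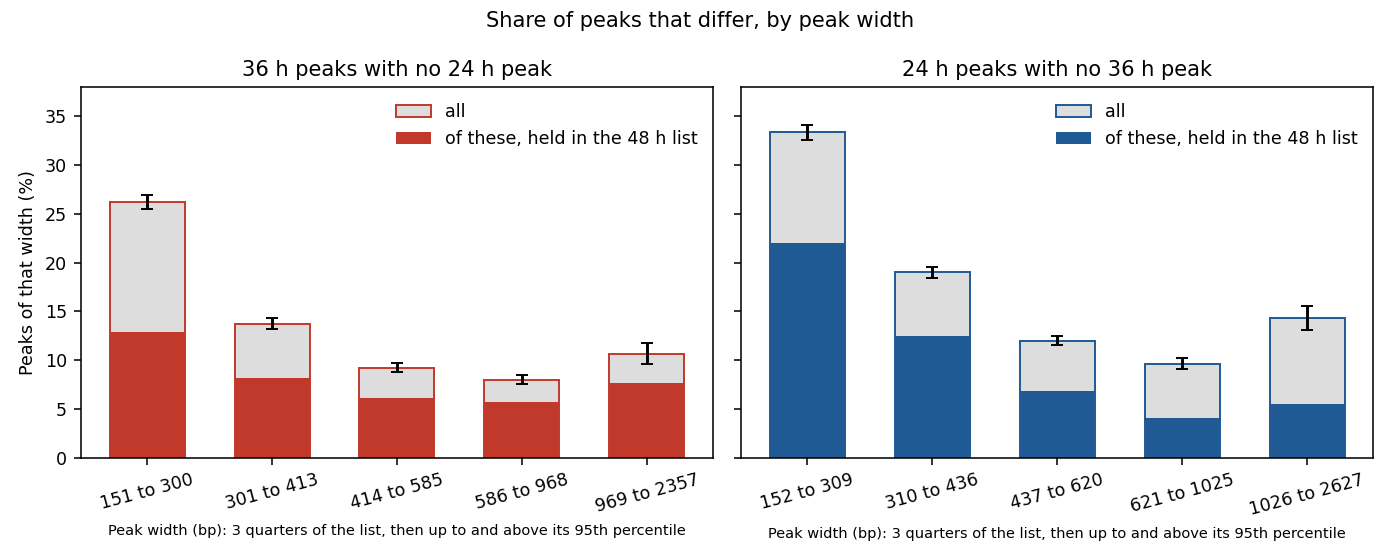
Share of peaks (%, y axis) that differ, by peak width (x axis, bp), for 36 h peaks with no 24 h peak (left) and 24 h peaks with no 36 h peak (right); the filled part is held in the 48 h list and the intervals are 95% Wilson intervals on the whole bar. The narrowest peaks differ most, with 26.2% new at 36 h and 33.4% dropped after 24 h.

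Width also differs between promoters and distal sites, so the positions were compared at like width. At 36 h, held new peaks were 6.55% of the promoter peaks and 6.005% of the distal peaks of 414 to 585 bp, and 4.98% and 6.17% of those of 586 to 968 bp. At 24 h, held dropped peaks were 3.51% of the promoter peaks and 7.23% of the distal peaks of 437 to 620 bp, and 1.89% and 5.58% of those of 621 to 1025 bp. The held dropped share was thus lower at promoters in both ranges, and the held new share in the wider range alone. Among still wider 36 h peaks, of 969 to 2357 bp, 7.67% of promoter and 7.58% of distal peaks were held new. Width also went with later listing. Among 36 h peaks of 151 to 300, 301 to 413, 414 to 585 and 586 to 2357 bp, the 120 h list contained 9.42%, 17.05%, 27.8% and 63.97% of held new peaks, and 10.4%, 27.03%, 40.2% and 69.8% of kept peaks. The 72 h list contained 40.04%, 55.7%, 59.2% and 73.3% of held new peaks in these ranges, and 54.8%, 70.03%, 78.00% and 87.2% of kept peaks. For the 12 h list the shares were 35.3%, 33.7%, 44.9% and 62.4% of held new peaks, and 76.5%, 81.2%, 85.99% and 89.7% of kept peaks. Held new peaks were thus listed less often than kept peaks of like width at 12, 72 and 120 h, and the gap was smallest for the narrowest peaks at 120 h.

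Some differing peaks lay beside a peak of the other list. Within 500 bp of a peak of the other list were 7.93% of held new and 8.61% of held dropped peaks. Cxcr4, which encodes the receptor that retains neutrophils in the bone marrow, holds such a pair. Its held new peaks at chr1:128549115-128549410 and chr1:128549485-128549967 start just beyond a held dropped peak at chr1:128548289-128549053. These adjoining stretches did not overlap and were counted as different sites.

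Peaks were next read by the gene the deposited annotation assigned to them, which is the gene with the nearest TSS. A peak at 36 or 24 h was assigned to 18624 genes, of which 3982 (21.4%) had at least 1 held new peak, 5270 (28.3%) at least 1 held dropped peak and 1409 both. More peaks at 36 h than at 24 h were assigned to 3984 genes, fewer to 5624 and as many to 9016. A held new peak after no peak in any list to 24 h was found at 77 genes (0.413%). They include Klf5, a zinc-finger factor gene, Il23a, a subunit of interleukin 23, Jaml, an adhesion receptor of migrating neutrophils, and Mrpl39, a mitochondrial ribosomal protein gene. No peak in any list from 36 h on was found at 401 genes (2.15%) with a held dropped peak. The lists from 72 h on are shorter, so these counts are not on a like footing. By the 24 and 36 h lists alone, 397 genes (2.13%) had a held new peak and no 24 h peak. A held dropped peak and no 36 h peak were found at 630 genes (3.38%). Cd40, a costimulatory receptor gene, had 2 peaks at 24 h and none from 36 h. Pax5, the B cell identity factor, had 1 peak at 24 h and none from 36 h, and Tek, an angiopoietin receptor gene, had its only peak at 24 h.

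Promoters first listed at 36 h and present in every list to 120 h were few, 21 peaks. S100a8 had one at chr3:90668642-90669345, 704 bp wide and centred 78 bp before the TSS, as part of 2 peaks at 36 h, against 2 at 24 h. Itgam, which encodes the neutrophil integrin chain CD11b, had a peak at chr7:128063496-128063717 in an intron, 966 bp past the TSS. Pram1, an adaptor protein gene of maturing myeloid cells, had one at chr17:33637555-33637821, 368 bp before the TSS. The peak of Mgst1 lay at chr6:138140359-138140644, and that of Kdm6b, a histone H3 lysine 27 demethylase gene, at chr11:69414121-69414343. These genes were picked for naming after their patterns were seen.

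By width, the widest promoter peaks first listed at 36 h and held at 48 h were those of Smarcd2, Lemd3, 1810013L24Rik, Mrpl39 and Elovl7. Smarcd2 encodes a chromatin remodelling subunit required for neutrophil granule formation, and its peak, chr11:106272328-106273319, was 992 bp wide. It was listed at 36, 48, 96 and 120 h but not at 72 h. The peak of Lemd3, an inner nuclear membrane protein gene, chr10:120978784-120979753, had the same pattern. Mrpl39 had no peak in the lists of 0 to 24 h and 1 in each list from 36 to 120 h. Of the widest distal peaks first listed, that of Lbr lay at chr1:181865777-181867180, was 1404 bp wide and was present in every list from 36 to 120 h. Lbr encodes the lamin B receptor, on which the lobed shape of the neutrophil nucleus depends. The widest, of 1769 bp, was assigned to the RNA-binding protein gene Hnrnpa2b1 and was listed at 36 and 48 h alone.

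Promoters in every list to 24 h and in none after it numbered 51. The peak of Angpt1, which encodes the ligand angiopoietin 1, lay at chr15:42676702-42677077, 88 bp past the TSS, and was 376 bp wide. Those of Cpa3, Itga2b and Tlr3 were chr3:20242124-20242379, chr11:102469787-102470414 and chr8:45410110-45410484. The promoter peak of Cd40, chr2:165055015-165055956, was 942 bp wide. Other promoters with this pattern were those of Itgb7, the integrin chain of gut-homing lymphocytes, of Myct1, of the nucleotide-binding receptor gene Nlrc3 and of Gimap5, a lymphocyte survival gene. These too were picked for naming after their patterns were seen. The widest promoter peaks dropped and not listed again were those of Zcchc24, Rnf225, Foxp1, Stk24 and Rnf4, of 1591, 1482, 1396, 1389 and 1372 bp. The one of Foxp1, a forkhead repressor gene, lay at chr6:99520942-99522337 and was 1 of 4 held dropped peaks beside 4 held new peaks of that gene.

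**Figure D4:**
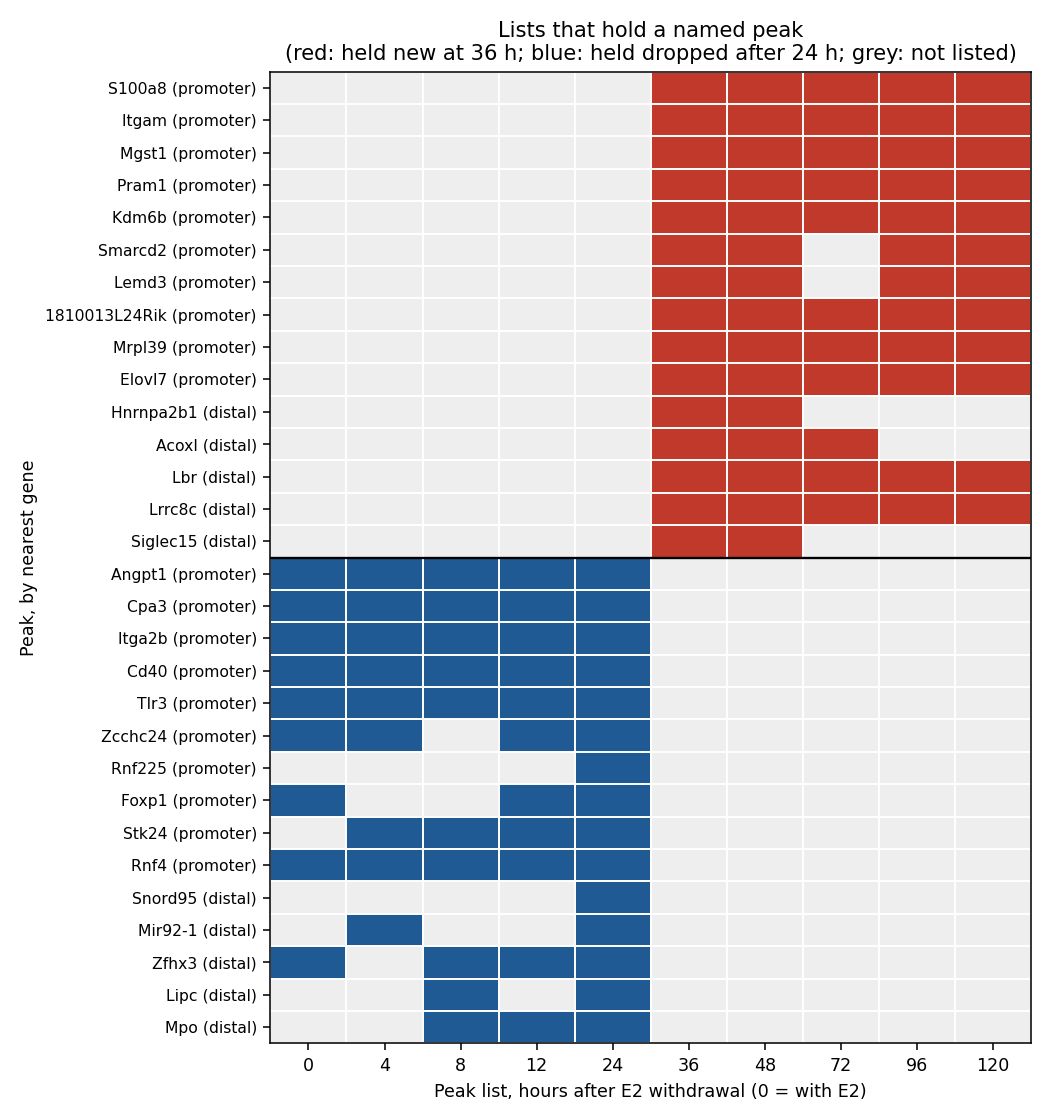
Presence of named peaks in the 10 lists (x axis, hours after E2 withdrawal), 1 peak per line by nearest gene, with held new peaks above and held dropped peaks below the black line. Filled cells mark a list with an overlapping peak and grey cells none; S100a8 to Kdm6b and Angpt1 to Tlr3 were picked for their pattern, and the other peaks are the 5 widest of each kind.

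Wide distal peaks dropped after 24 h and not listed again included a site of 1443 bp beyond the end of Mpo, which encodes myeloperoxidase of the primary granules. It lay at chr11:87805948-87807390, 12885 bp from the Mpo TSS in a 3′ UTR by annotation, and was listed at 8, 12 and 24 h. A site of 1864 bp at chr14:115047690-115049553 lay 4194 bp past Mir92-1, a microRNA of a cluster that promotes proliferation, and was listed at 4 and 24 h. Zfhx3 and Lipc had dropped sites of 1562 and 1492 bp. Peaks nearest to any microRNA gene were 2.9% (2.47 to 3.41%) of held new and 3.38% (2.98 to 3.82%) of held dropped peaks, close to the 3.18% and 3.2% of the full lists at 36 and 24 h.

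Several genes had many differing sites. Sipa1l1, Etv6 and Dgkh had 6 held new peaks each. Etv6, an ETS-family repressor gene, had 5 first listed at 36 h and 1 held dropped peak. It was assigned 22 peaks at 36 h, against 20 at 24 h. Of the 6 held new peaks of Dgkh, a diacylglycerol kinase gene, 5 were first listed at 36 h, and 2 of its peaks were held dropped. Fam49b, Dad1, Adcy9 and Slc15a4 followed with 5 held new peaks each, and Arfgef1 had 4 held new and 0 held dropped peaks, with 10 peaks at 36 h, against 6 at 24 h. Pmepa1, which encodes an inhibitor of transforming growth factor signalling, had the most held dropped peaks, 8, of which none came back, beside 2 held new peaks. The held dropped peaks lay between chr2:173281004-173281268 and chr2:173385784-173386109, upstream of the TSS, and the gene was assigned 6 peaks at 36 h, against 12 at 24 h. Sorcs2, a sorting receptor gene, had 6 held dropped and no held new peaks, with 7 peaks at 36 h, against 13 at 24 h. C030029H02Rik had 7, with 4 peaks at 36 h, against 12 at 24 h, and 4 of the 7 had been in every list to 24 h. Bcor, a transcriptional corepressor gene, stood among the top genes in both directions, with 4 held new and 7 held dropped peaks. Within 50 kb of the TSS, Etv6 retained 1 and Sipa1l1 2 held new peaks, and Pmepa1 retained 5 and C030029H02Rik 2 held dropped peaks. The held new peaks of Dad1 lay 7510, 100996, 468558, 496455 and 512474 bp past its TSS. Assignment of the more distant sites to these genes is therefore less sure.

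Gene lists for the lineage and the cell state were then read, with 282 genes in 15 lists. They were chosen with earlier results of these data known, and their counts are descriptions. Over the 15 lists, 133 held new and 138 held dropped peaks were assigned to list genes. Across all genes, 8.31% of 36 h peaks were held new and 11.5% of 24 h peaks were held dropped, which is the background for each list.

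Neutrophil surface and chemotaxis genes had 22 held new peaks among 154 at 36 h, 14.3% (9.63 to 20.7%), and 12 held dropped peaks among 144 at 24 h, 8.33% (4.83 to 14.00%). More held new than held dropped peaks were found at 9 of its 28 genes and fewer at 5, and 14 had as many of each. Pilra had 6 peaks at 36 h, against 2 at 24 h, with 4 held new and 0 held dropped peaks. Of these, chr5:137836168-137836491 lay 51 bp before the TSS and had been listed at 8 h, and chr5:137837093-137837538 was listed at 36, 48, 72, 96 and 120 h. Cxcr4 had 4 held new and 2 held dropped peaks and Itgam 2 and 0. Ly6g, the neutrophil surface antigen gene, had 2 held new peaks, both first listed at 36 h, with 6 peaks at 36 h, against 3 at 24 h. Csf3r, the receptor gene for granulocyte colony-stimulating factor, had 0 held new and 1 held dropped peak. Pilra, Cxcr4, Itgam and Ly6g thus hold most of the list's held new peaks.

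Myeloid transcription factor genes had 28 held new peaks of 310 at 36 h, 9.03% (6.32 to 12.7%), and 22 held dropped peaks of 303 at 24 h, 7.26% (4.84 to 10.7%). Within 50 kb of the TSS the dropped number was 14. Cebpa, the factor gene of granulocyte commitment, had 3 held new and no held dropped peaks. Its promoter peak chr7:35118870-35119755, 886 bp wide, was listed at 8, 36, 48, 72 and 120 h. Its sites at 26125 and 31732 bp past the TSS had been listed at 12 h. The related genes Cebpb, Cebpd and Cebpe had 1 held new and 0 held dropped peaks each, none first listed at 36 h. In contrast, Bach1, a heme-regulated repressor gene, had 1 held new and 4 held dropped peaks. Runx2 had 3 held new and 2 held dropped peaks, and Runx3 had 0 and 2.

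Granule and oxidase genes had small numbers of peaks. Primary granule genes had 6 held new of 76 peaks at 36 h, 7.89% (3.67 to 16.2%), and 7 held dropped of 75 at 24 h, 9.33% (4.59 to 18.03%). The elastase gene Elane had 2 peaks at 36 h, against 2 at 24 h and neither kind of change. Secondary and gelatinase granule genes had 3 held new of 33 peaks, 9.09% (3.14 to 23.6%), and 1 held dropped of 34, 2.94% (0.521 to 14.9%). Oxidase genes had 3 of 30, 10.00% (3.46 to 25.6%), and 1 of 27, 3.7% (0.657 to 18.3%). The intervals of these 3 lists all include the shares over all genes. Camp, a secondary granule gene that encodes the antimicrobial cathelicidin, had a held new peak: its promoter peak chr9:109849330-109849964 was in every list except that of 24 h. Ltf, the lactoferrin gene, had no peak at either time. Cyba, an oxidase membrane subunit gene, had 1 held new peak first listed at 36 h.

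Progenitor and stem cell genes had 23 held new peaks of 196 at 36 h, 11.7% (7.95 to 16.99%), and 26 held dropped peaks of 196 at 24 h, 13.3% (9.22 to 18.7%). Of the held new peaks 7 were first listed at 36 h, and of the held dropped peaks 21 were not listed again. Over all genes, 39.4% of held new peaks were first listed at 36 h and 83.9% of held dropped peaks were not listed again. Within 50 kb of the TSS the progenitor list had 11 held new and 12 held dropped peaks. Myb, a factor gene of proliferating progenitors, had 8 peaks at 36 h, against 3 at 24 h and 7, 5, 7 and 6 at 0, 4, 8 and 12 h. Inside the gene lay 4 held new peaks. Of these, 2 were listed at 36 and 48 h alone. Erg, an ETS factor gene of stem cells, had 2 held new and 4 held dropped peaks, and the pseudokinase gene Trib2 had 1 and 4. The Hoxa9 cofactor gene Meis1 had 0 held new and 1 held dropped peak, and the stem cell antigen gene Cd34 likewise.

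Inflammatory and NF-kB genes had 14 held new of 169 peaks, 8.28% (4.999 to 13.4%), and 15 held dropped of 170, 8.82% (5.42 to 14.05%). Nfkb1 had 0 held new and 3 held dropped peaks, whereas Nfkb2 and the cytokine gene Il1b had 2 held new and 0 held dropped each. Interferon response genes had 8 held new of 48 peaks, 16.7% (8.7 to 29.6%), and 8 held dropped of 52, 15.4% (8.01 to 27.5%). The antiviral effector gene Mx1 had 0 held new and 3 held dropped peaks, with 3 peaks at 36 h, against 6 at 24 h, and its promoter peak was listed again from 72 h on. The RNA sensor genes differed: Ddx58 had 3 held new and 0 held dropped peaks, and Ifih1 had 0 and 2.

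Cell cycle genes had 3 held new of 84 peaks, 3.57% (1.22 to 9.98%), and 9 held dropped of 88, 10.2% (5.47 to 18.3%). E2f1, which drives entry into DNA synthesis, had 0 held new and 2 held dropped peaks. Its promoter peak chr2:154568871-154570436, 1566 bp wide, was listed at 4, 8, 12 and 24 h and again at 72, 96 and 120 h. Housekeeping genes, set beside these as a control, had 3 held new of 84 peaks, 3.57% (1.22 to 9.98%), and 7 held dropped of 88, 7.95% (3.91 to 15.5%). The intervals of the cell cycle and housekeeping lists overlap in both directions.

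Genes of other cell types had peaks in both directions. Macrophage and monocyte genes had 5 held new of 91 peaks and 8 held dropped of 98. Mast cell, basophil and eosinophil genes had 4 of 52 and 5 of 51. For lymphoid genes the counts were 4 of 46 and 8 of 52, and all 8 were not listed again. For erythroid and megakaryocyte genes they were 3 of 36 and 6 of 42, with 5 not listed again. Over all genes, 83.9% of held dropped peaks were not listed again. Mitf, a factor gene of mast cells, had 1 held new and 3 held dropped peaks. Rag2, a recombinase gene of lymphocytes, had 1 and 3, and its held new peak lay 808820 bp before the TSS. Other members had more held new peaks: Epor, the erythropoietin receptor gene, had 2 held new and 0 held dropped peaks, Dntt, a DNA polymerase gene of lymphocyte precursors, 2 and 1, and Maf, a macrophage factor gene, 3 and 2. In the mast cell list, 2 genes had more held new and 2 more held dropped peaks. Genes of the estrogen receptor and its response had 4 held new of 37 peaks and 3 held dropped of 36. All these intervals include the share over all genes.

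**Figure D5:**
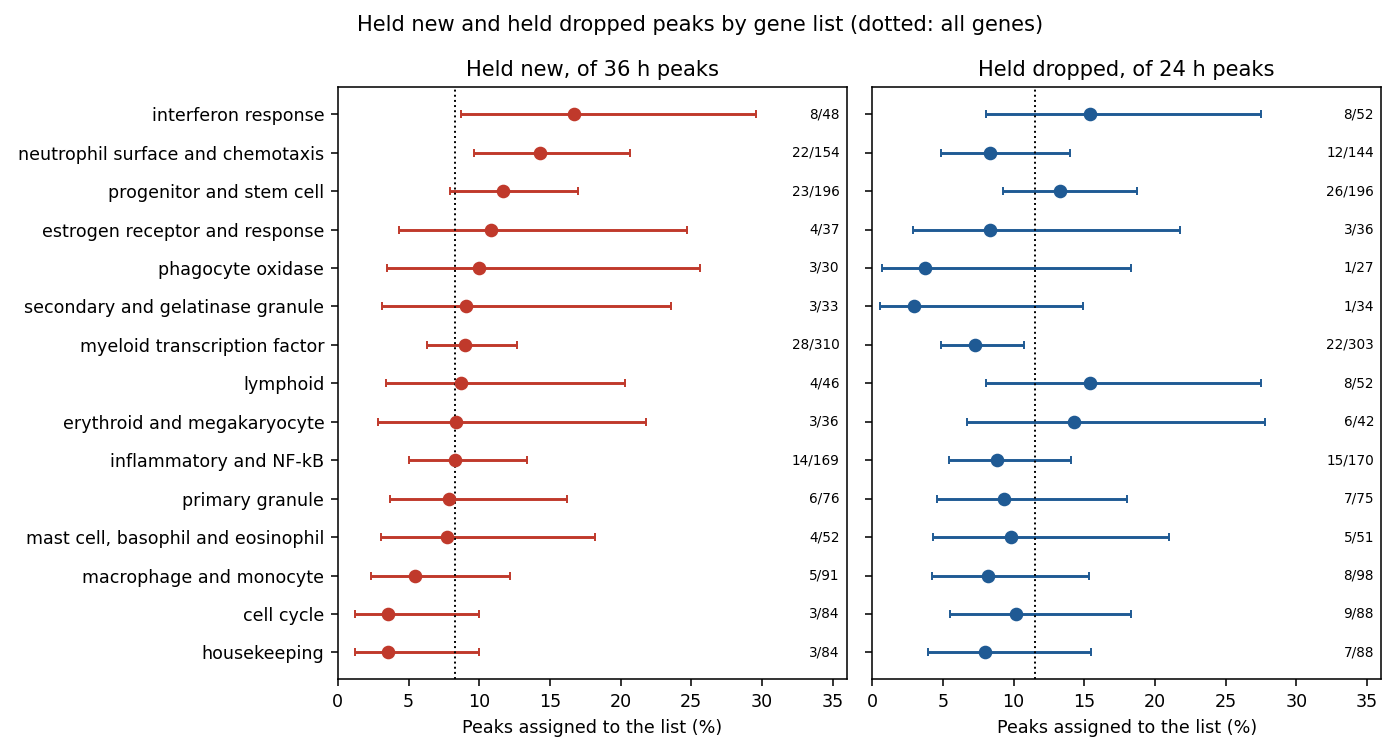
Share of 36 h peaks that were held new (left) and of 24 h peaks that were held dropped (right), in % on the x axes, for each gene list (y axis); points carry 95% Wilson intervals, the counts stand at the right and the dotted lines mark all genes at 8.31% and 11.5%. The neutrophil surface and chemotaxis list stands at 14.3% held new and 8.33% held dropped.

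Held new peaks first listed at 36 h overlapped 53 RefSeq windows, and held dropped peaks not listed again overlapped 138. The median GC content was 54.3% for the first set and 53.7% for the second, with medians of 5 and 7 CpG pairs. Windows overlapping kept peaks had 61.00% and 21 CpG pairs, and all 32817 windows 52.7% and 7. Windows of peaks first listed at 36 h and of peaks not listed again thus had fewer CpG pairs than kept ones. Windows overlapping any held new peak had medians of 62.3% and 22 CpG pairs, and any held dropped peak 59.7% and 17. Those of held dropped peaks that came back had 63.8% and 23. The low counts thus belong to the sets absent from other lists, and kept windows were not split in this way.

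Motif letters were counted on both strands. The GATA letters AGATAA stood in 7.55% (2.97 to 17.9%) of windows first listed at 36 h and 20.3% (14.4 to 27.8%) of windows not listed again, beside 5.82% of kept and 11.2% of all windows. The RUNX letters TGTGGT stood in 30.2% (19.5 to 43.5%) and 26.8% (20.1 to 34.8%), beside 12.8% of kept and 16.8% of all windows. The C/EBP letters TTGCNNAA stood in 13.2% (6.55 to 24.8%) and 7.25% (3.98 to 12.8%), beside 8.81% and 10.8%. The ETS letters CCGGAAGT stood in 3.77% (1.04 to 12.8%) of windows first listed and in 0 of 138 not listed again, which allows a share of up to 2.17%, beside 9.42% of kept and 3.89% of all windows. The PU.1 letters GAGGAAGT, which share their last 6 letters with the ETS motif, stood in 5.66% and 0.725%, beside 3.93% and 3.2%. The NF-kB motif stood in 1.89% and 0.725%, beside 0.466% and 0.411%, and the TATA letters TATAAA in 16.98% and 13.8%, beside 6.29% and 13.6%. The letters TGACGTCA (CRE), TGANTCA (AP-1), CACGTG (E-box) and CCAAT were also searched, and stood in 5.66%, 9.43%, 3.77% and 35.8% of windows first listed and in 1.79%, 7.81%, 7.15% and 37.4% of all windows. In windows not listed again, CRE stood in 0 of 138, which again allows up to 2.17%, and AP-1, E-box and CCAAT in 7.97%, 5.07% and 32.6%.

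In the windows printed above, a PU.1 match and a TATA match stand before the start of S100a8 and a C/EBP match in that of Mgst1. Pilra has matches to C/EBP, RUNX and GATA. Cpa3 has matches to GATA and RUNX and 2 to TATA, Tlr3 to C/EBP, GATA and NF-kB, and Itga2b none of the letters searched. The windows can reach beyond the peaks. The NF-kB match of Tlr3 and the TATA match of Cpa3 farther from the start lie outside the held dropped peaks. A match describes the sequence and does not show that a factor bound there. Motifs of the distal peaks were not analysed here, as the windows cover promoters alone.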

How the data were processed

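ATAC-seq peak lists of 20 samples, 2 per time point at 10 times, were analysed. The authors deposited 1 annotated list per time point, holding each peak's start, end, nearest TSS, distance and annotation. The tools named, without a role, are BWA, MACS2 2.0 and STAR 2.5, per the submitters' processing notes. The sources used here do not say how the reads of both replicates were combined or whether a Tn5 offset was applied. HOMER annotated the peaks against mm10, per the file headers, while the processing notes name mm9. Of 36 h peaks within 100 bp of an annotated TSS, 85.2% lay within 1000 bp of an end of the same gene in RefSeq GRCm38.p6, the mm10 sequence, so coordinates are given as mm10, counted from 1. The deposited score is 0 for every peak, so peaks were ranked by width.

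Overlap was at least 1 bp, peaks within 1000 bp of a TSS were promoters, and genes were the deposited nearest ones. Members and lists were chosen with earlier results of these data known. Named were Lyz2 and Hoxa9, the 10 genes with most held new and held dropped peaks, up to 3 genes per list with the largest difference, and the 5 widest promoter and distal peaks of each direction. Other genes in the text were chosen after their values were seen. All 282 list symbols matched RefSeq, and 14 had no peak at 36 or 24 h. RefSeq promoter windows on GRCm38.p6 were assigned to a class when any peak of that class overlapped them. Alternatives covered the overlap, the list length, the promoter distance, the list used for holding and the gene window. The sorting step was tested on simulated data: of 12000 simulated sites over 3 lists, 100% of peaks were put in the right class, which checks the sorting only. Scripts ran under Python 3.11.15 with scipy 1.17.1, pandas 2.3.3 and numpy 2.4.6, and figures were drawn with matplotlib 3.10.9.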

Additional observations from a re-analysis of the deposited data

How the results depend on the processing

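No paired analysis was possible because each time point has 1 list for both replicates, and for the same reason no replicate could be left out. Of 56 alternative values for the main counts and shares, 35 stayed within 1.5 times the reported count or within the reported share's interval. With the widest 50% of each list, 7373 peaks were dropped, 2920 were held new and 4520 held dropped; the 48 h list then contained 49.9% of new peaks, and promoters were 22.2% of held new and 9.18% of held dropped peaks. When the 12 h list had to match the 24 h list, 2896 peaks were held new and 3604 held dropped. Promoters were then 10.05% of the held new peaks, and 300 of the 3604 held dropped peaks were promoters. With the 72 h list in place of the 48 h list, promoters were 20.7% of held new and 6.59% of held dropped peaks. Counting peaks within 500 bp as the same site gave 58.9% of new peaks listed at 48 h, 60.05% of dropped peaks not listed, and promoter shares of 14.1% and 5.76%. Lists of equal length gave 59.6% and 59.6% for the first pair. A promoter distance of 500 bp gave promoter shares of 12.7% for held new and 5.2% for held dropped peaks, and one of 2500 bp gave 20.2% and 12.2%. The promoter share was higher in held new than in held dropped peaks under each alternative run, but the gap was small when the 12 h list had to match. Of 228 values for single lists and genes, 50 moved by more than 1.5 times, 46 of them when only peaks within 50 kb were assigned. The cause of these differences was not tested.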
